A study of Sus scrofa with 11 samples.

Results

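Transforming growth factor beta (TGF-beta) genes were followed across full-thickness skin wounds of a diabetic and a non-diabetic Yucatan minipig. The group holds 10 genes of the 30376 in the deposited expression values, taken by symbol: the ligands TGFB1, TGFB2 and TGFB3, the receptors TGFBR1, TGFBR2 and TGFBR3, and the latency proteins LTBP1, LTBP2, LTBP3 and LTBP4. All 10 were found, each on 1 row, and all 10 passed the filter on low values. Wounds were excised on day 10, and polyadenylated RNA was sequenced with 1 library per wound from 7 diabetic wounds (D1 to D7, by replicate number) and 4 non-diabetic wounds (N1 to N4). Diabetes had been induced with intravenous streptozotocin (STZ), which destroys pancreatic beta cells, and insulin support was stopped before wounding. The non-diabetic minipig received the same punch wounds, and both animals were female. Each group is the wounds of 1 minipig, so every spread and p value below is between wounds of the same animal, and diabetes and animal cannot be told apart. Library names carry a letter, L (D1 to D3, N1 and N2) or R (D4 to D7, N3 and N4), whose meaning the labels do not give.

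TGF-beta ligands are made as precursors whose propeptide stays wrapped around the mature growth factor and keeps it latent. In most cells the latent complex is bound to a latent TGF-beta binding protein (LTBP), which anchors it to fibrillin and fibronectin, and integrins or proteases release the ligand later. Free ligand binds TGFBR2, which recruits and phosphorylates TGFBR1, and TGFBR1 phosphorylates SMAD2 and SMAD3. TGFBR3 (betaglycan) is a co-receptor that presents ligand, above all TGFB2. In skin wounds the pathway is known for driving matrix deposition and myofibroblast formation and for restraining keratinocyte growth and inflammation. TGFB3 is linked to less scarring in some models, and platelets and macrophages are well known sources of TGFB1.

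None of the 10 genes was called different between diabetic and non-diabetic wounds. The call was limma's moderated test on log2(FPKM + 0.5) with Benjamini-Hochberg adjustment over 13956 genes, with the threshold set at 0.05 for the adjusted p and at 0.5, in either direction, for the log2 fold change. FPKM is the number of fragments per kilobase of transcript, scaled by a factor for each library. How that factor was set is not given in the sources used here. By that rule 419 genes, 3.00% of those tested, were called, and 0 of 10 members were. At an unadjusted p under 0.05, a cut that 18.4% of all genes tested passed, 4 members remained (TGFB1, TGFB3, TGFBR1 and LTBP4), and 1 of them, TGFB3, also passed the fold threshold. An exact permutation test, two-sided, over the 330 possible splits of the wounds gave a p under 0.05 for 3 members (TGFB1, TGFB3 and LTBP4), with 0.00303 as the smallest p the design allows. The share of all genes that passed this exact test is not given here. Voom on reads recovered from the values, the other test run, called 1 member, TGFB3, beside 2.31% of all genes. The groups overlapped for all 10 members, whereas they did not overlap for 5.65% of the genes tested. Mean log2 values were higher in diabetic wounds for 5 members and lower for 5, and the median log2 fold change of the members was 0.04, beside 0.01 over all genes tested.

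**Figure D1:**
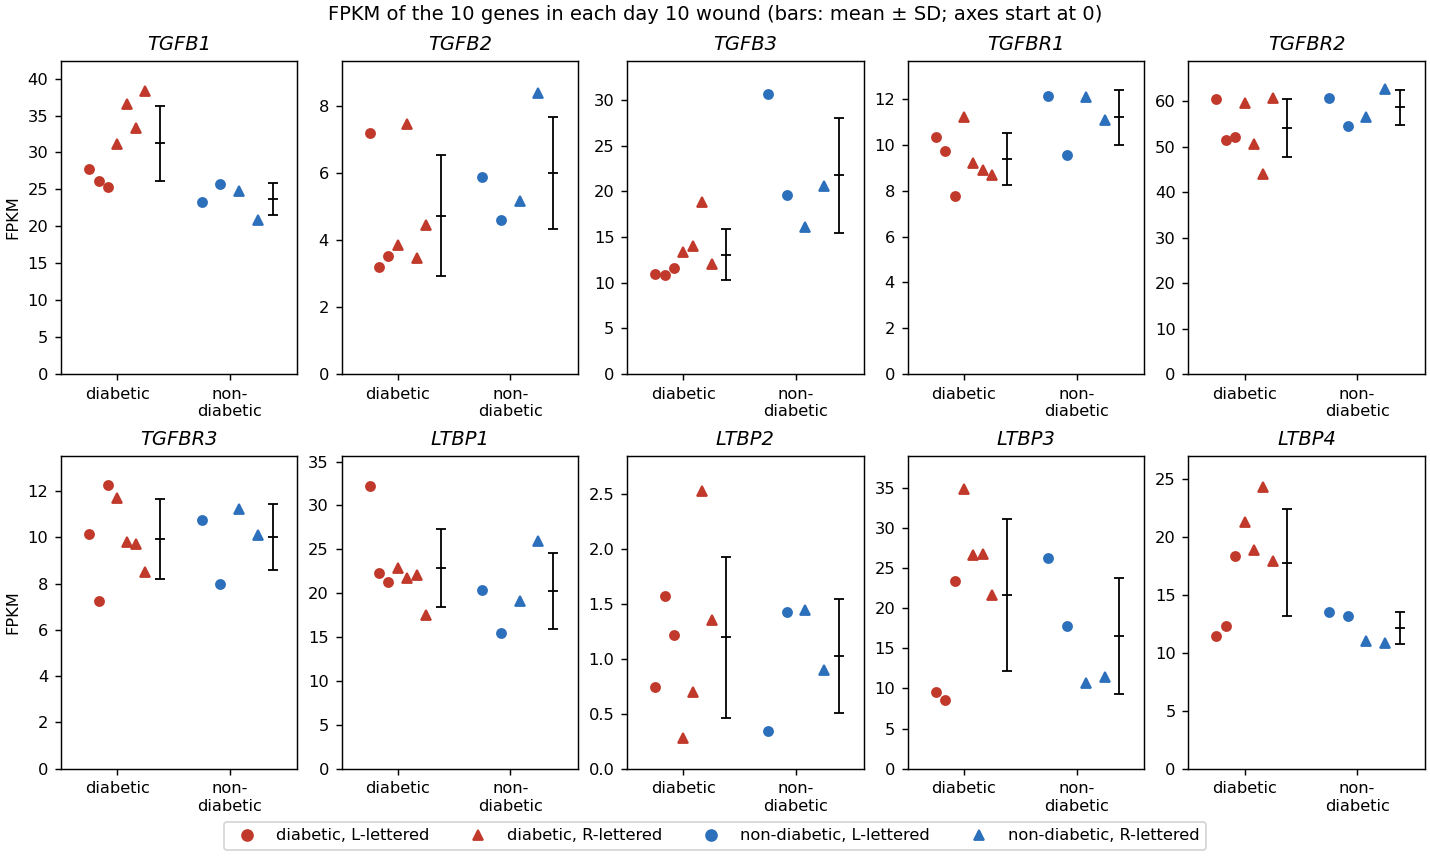
FPKM (vertical axes, each from 0) of the 10 genes in every wound, with diabetic wounds in red and non-diabetic wounds in blue. Circles are L-lettered and triangles R-lettered libraries, and bars give mean ± SD (n = 7 and 4). The groups overlap in every panel, and 6 of 7 diabetic wounds lie outside the non-diabetic range for TGFB1 and for TGFB3.

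Depth was 28314785 to 40168372 reads on genes in diabetic wounds and 32961018 to 36872400 in non-diabetic wounds. The deposited FPKM did not follow these reads alone. D2 and D5 had 37922563 and 37723496 reads, yet 1 read on 2 kb counted 0.0112 FPKM in D2 and 0.0153 FPKM in D5. Behind each member's value lay at least 740 reads, except for LTBP2, with 81 to 644. D4 and N1 stood apart from the other 9 wounds on the first principal component, which held 44.5% of the variance. Summed FPKM of 6 keratinocyte markers was 34.95 in D4 and 252.8 in N1, beside 1244 to 6054 in the others, and that of 5 neutrophil markers was 41.4 and 299.9, beside 3800 to 12590. The neutrophil sum is nearly all S100A8, S100A9 and S100A12. Of the rest, CXCR2 was 0.215 in D4 and 0.0434 in N1, beside 1.077 to 2.745 in the other wounds. CSF3R fell far less, at 3.70 in D4 and 2.75 in N1, beside 3.45 to 11.06. In D3, 5 skeletal muscle markers summed to 1339 FPKM, and in every other wound they stayed at or below 0.20. These are bulk tissue values, in which fewer cells of a type and less RNA per cell cannot be told apart.

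Over all 11 wounds TGFB3 had the largest difference of the ligand genes, and TGFB1 differed in the opposite direction, with the larger difference in the R-lettered libraries alone. TGFB1, at 0.38, and TGFB2, at -0.35, were close in size, and their order turned with TPM scaling, quantile normalization, the replicate block, the L-lettered libraries alone and 5 of the 11 single leave-outs. TGFB1 is gene 397078 at chromosome 6, 49332169 to 49348642, minus strand, and TGFB3 is gene 397400 at chromosome 7, 99133873 to 99162239, minus strand, in Sscrofa11.1. Their annotated start regions are shown because these ligand genes differed in opposite directions. Each is the 250 bases before the gene's outermost start, read 5′ to 3′ from the Sscrofa11.1 genome with the NCBI RefSeq annotation. Capitals mark a GC box (GGGCGG) or a CCAAT box (CCAAT) on either strand, and here only the first window holds one.
TGFB1, chr6:49348643-49348892, minus strand: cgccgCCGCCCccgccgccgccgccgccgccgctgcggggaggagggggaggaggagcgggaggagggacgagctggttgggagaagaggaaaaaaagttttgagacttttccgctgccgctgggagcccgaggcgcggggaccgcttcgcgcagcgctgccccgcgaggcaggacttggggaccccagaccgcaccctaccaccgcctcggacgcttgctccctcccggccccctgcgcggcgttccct
TGFB3, chr7:99162240-99162489, minus strand: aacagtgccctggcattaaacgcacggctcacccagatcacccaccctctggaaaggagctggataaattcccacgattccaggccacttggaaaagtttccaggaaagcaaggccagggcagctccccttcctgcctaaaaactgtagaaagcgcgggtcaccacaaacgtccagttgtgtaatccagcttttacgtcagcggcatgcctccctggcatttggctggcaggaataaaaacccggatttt
The search covered 5 motifs on both strands, none of which contains another. A GC box is in 35.6% and a CCAAT box in 31.9% of 30313 such windows, a TATA box (TATAAA) in 11.9%, an AP-1 element (TGACTCA) in 3.20% and a cyclic AMP response element (TGACGTCA) in 1.28%. The TGFB1 window held 1 GC box and was 74.0% G and C, the TGFB3 window held none of the 5 and was 52.8%, and the median window was 53.6%. Each window lies wholly inside another annotated gene, that of TGFB1 in LOC110261354 on the same strand and that of TGFB3 in IFT43 on the opposite strand. The data do not measure which start was used. TGFB1 has 2 and TGFB3 has 3 annotated transcripts, which a gene-level value pools, and their separate starts were not examined.

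TGFB3 had FPKM of 10.9, 10.9, 11.5, 13.3, 14.01, 18.8 and 12.1 in D1 to D7 and 30.7, 19.6, 16.1 and 20.5 in N1 to N4. Only D6 reached into the non-diabetic range, above N3, and 6 of 7 diabetic wounds lay below every non-diabetic wound. The mean was 13.1 ± 2.79 in diabetic (SD, n = 7) and 21.7 ± 6.27 in non-diabetic wounds (SD, n = 4), a log2 difference of -0.69 ± 0.18 (SE) with a 95% interval of -1.09 to -0.30. The adjusted p was 0.0612 (limma), short of the threshold, and the exact permutation p was 0.00606. TPM scaling, quantile normalization, library weights, voom and leaving out D6 each took it past the threshold, with an adjusted p of 0.0247, 0.0401, 0.0356, 0.0277 and 0.0295. Leaving out N1, the highest wound, gave -0.52 (adjusted p = 0.170), and leaving out both D4 and N1 gave -0.53 (adjusted p = 0.190). The study names TGFB3 among its downregulated matrix genes, called by DESeq2 on raw counts of these same wounds, whereas the limma test here used FPKM. The values here are therefore not independent evidence. IFT43, on the opposite strand, overlaps 6351 bases of the gene with 268 to 399 reads of its own, beside 1183 to 3343 reads for TGFB3, and the strand setting of the counting is not given in the sources used here.

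TGFB1 had FPKM of 27.8, 26.1, 25.3, 31.2, 36.5, 33.3 and 38.4 in D1 to D7, against 23.3, 25.8, 24.7 and 20.8 in N1 to N4. D3 was the only diabetic wound not above every non-diabetic wound, and it lay below N2 alone. The mean was 31.2 ± 5.09 (SD, n = 7) against 23.7 ± 2.14 (SD, n = 4), a log2 difference of 0.38 ± 0.13 (SE, 95% interval 0.11 to 0.66). The adjusted p was 0.127 and the exact permutation p 0.0152, which became 0.05 without N4. Summed FPKM of 7 macrophage markers was 532 to 1195 in diabetic and 337 to 642 in non-diabetic wounds, with all 7 higher in mean log2 value and 2 called. The 4 platelet and megakaryocyte markers summed to 2.49 to 5.54 FPKM in diabetic and 3.45 to 4.30 FPKM in non-diabetic wounds. In D4 to D7, the wounds highest in TGFB1, that sum was 4.47 to 5.54 FPKM. The part of either cell type in the TGFB1 value was not tested. A neighbouring gene, LOC110261354, shares 373 bases and the strand with TGFB1 and had 54 to 105 reads, beside 1842 or more for TGFB1.

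TGFB2 was the least abundant ligand gene, with FPKM of 7.19, 3.18, 3.51, 3.84, 7.45, 3.47 and 4.46 in D1 to D7. In N1 to N4 it had 5.87, 4.60, 5.16 and 8.37. D1 and D5 lay inside the non-diabetic range and the other 5 diabetic wounds below it. The log2 difference of -0.35 ± 0.25 (SE, 95% interval -0.89 to 0.19) did not pass the test (adjusted p = 0.498, limma).

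The opposite differences of TGFB1 and TGFB3 set the make-up of the ligand transcripts apart within each wound, a description chosen after the values were seen and given no test. TGFB1 FPKM was 2.55, 2.40, 2.19, 2.34, 2.61, 1.77 and 3.18 times TGFB3 FPKM in D1 to D7 and 0.760, 1.31, 1.54 and 1.02 times in N1 to N4. The lowest diabetic ratio, in D6, was above the highest non-diabetic one, in N3. A ratio within 1 library does not depend on how libraries were scaled to each other. TGFB1 made up 59.9% to 69.9% of the summed ligand FPKM in diabetic wounds and 39.0% to 53.8% in non-diabetic wounds. TGFB3 made up 21.97% to 33.8% and 35.0% to 51.2%, and TGFB2 6.25% to 15.7% and 9.20% to 16.8%. The summed ligand FPKM itself overlapped, at 40.2 to 58.0 in diabetic and 46.0 to 59.9 in non-diabetic wounds.

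**Figure D2:**
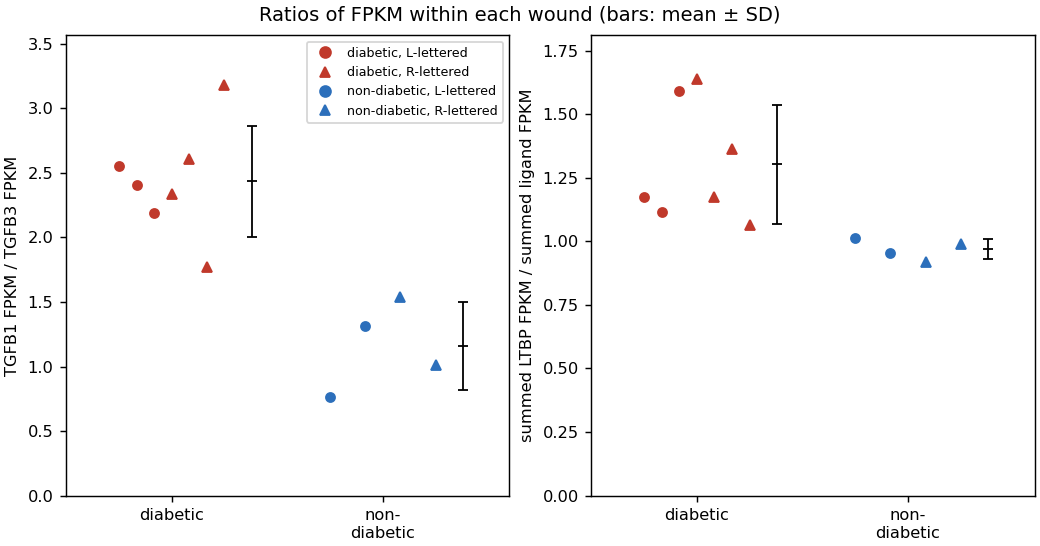
Left, TGFB1 FPKM divided by TGFB3 FPKM, and right, the summed FPKM of the 4 LTBP genes divided by that of the 3 ligand genes, in every wound (circles L-lettered, triangles R-lettered, bars mean ± SD). Diabetic wounds sit at 1.77 to 3.18 on the left and 1.07 to 1.64 on the right, above the non-diabetic wounds at 0.760 to 1.54 and 0.920 to 1.01.

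With all 11 wounds and equal weights, each receptor gene differed less than each ligand gene. This order turned in some settings. TGFBR1 passed TGFB1 in size with TPM scaling (-0.32 against 0.31) and in the L-lettered libraries alone (-0.21 against 0.10). Without N4 it passed TGFB2 (-0.25 against -0.19). TGFBR2, the type II receptor kinase, was the most abundant member per length, with 43.9 to 60.8 FPKM (median 52.0) in diabetic and 54.5 to 62.8 (median 58.6) in non-diabetic wounds. Its log2 difference was -0.12 ± 0.10 (SE, 95% interval -0.34 to 0.10, adjusted p = 0.574, limma). TGFBR1, the type I kinase that signals to SMAD2 and SMAD3, had 10.3, 9.74, 7.78, 11.2, 9.23, 8.90 and 8.69 FPKM in D1 to D7 and 12.1, 9.56, 12.1 and 11.12 in N1 to N4. Each diabetic wound lay below the non-diabetic median of 11.6, and 4 lay below every non-diabetic wound. The log2 difference was -0.24 ± 0.11 (SE, 95% interval -0.48 to -0.01), with an unadjusted p of 0.0433 and an adjusted p of 0.252 in limma, and an exact permutation p of 0.0545. TGFBR3 showed 7.25 to 12.3 FPKM in diabetic and 7.98 to 11.2 FPKM in non-diabetic wounds, with a log2 difference of -0.02 and a 95% interval of -0.33 to 0.29.

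Of the latency genes, LTBP4 had the largest difference over all 11 wounds with equal weights, and LTBP3 a larger one with library weights, without N1 and within either letter. LTBP4, the LTBP known for elastic fibre assembly, had FPKM of 11.4, 12.3, 18.4, 21.4, 18.9, 24.4 and 17.9 in D1 to D7 and 13.6, 13.2, 11.01 and 10.9 in N1 to N4. D3 to D7 lay above every non-diabetic wound and D1 and D2 within their range. The log2 difference was 0.50 ± 0.19 (SE, 95% interval 0.08 to 0.92, adjusted p = 0.191, limma), and the exact permutation p of 0.0485 went above 0.05 on leaving out any 1 of the wounds D3 to D7 or N1 to N4. With library weights LTBP4 was called, at 0.62 (adjusted p = 0.0201). LTBP3, a carrier of latent TGF-beta known for its part in bone and teeth, varied more within the groups than between them, at 9.57, 8.62, 23.4, 34.8, 26.7, 26.7 and 21.7 FPKM in D1 to D7 and 26.3, 17.8, 10.7 and 11.5 in N1 to N4. Its log2 difference of 0.32 had a 95% interval of -0.54 to 1.18 (adjusted p = 0.725). Whether other annotated genes overlap LTBP3 is not reported here.

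LTBP1, a widely expressed carrier of latent ligand, had 17.5 to 32.2 FPKM (median 22.1) in diabetic and 15.4 to 25.9 (median 19.8) in non-diabetic wounds. D1, at 32.2, was the only wound above the non-diabetic range, and the log2 difference was 0.18 (95% interval -0.17 to 0.53, adjusted p = 0.615, limma). LTBP2, which does not bind latent TGF-beta, was the least abundant member at 0.278 to 2.53 FPKM in diabetic and 0.346 to 1.44 FPKM in non-diabetic wounds. Its log2 difference of 0.11 had a 95% interval of -0.65 to 0.87. The lowest values in the respective groups were those of D4 and N1. ISCA2, on the opposite strand, shares 1518 bases with LTBP2 and had 85 to 220 reads, beside 81 to 644 for LTBP2.

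Summed over the 4 genes, LTBP FPKM was 44.8 to 79.4 in diabetic and 42.3 to 60.6 in non-diabetic wounds. Divided by the summed ligand FPKM, it was 1.17, 1.11, 1.59, 1.64, 1.17, 1.36 and 1.07 in D1 to D7 and 1.01, 0.956, 0.920 and 0.989 in N1 to N4. All 7 diabetic wounds lay above all 4 non-diabetic wounds, D7 by the least. This ratio too was chosen after the values were seen, and it was not tested.

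**Figure D3:**
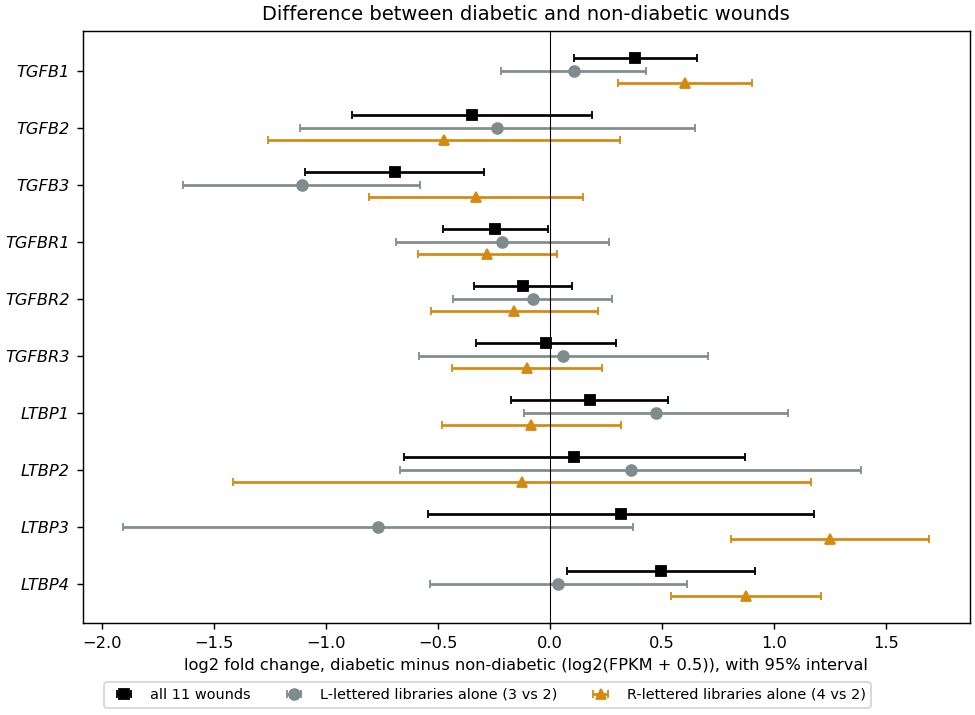
Log2 fold change, diabetic minus non-diabetic on log2(FPKM + 0.5), with its 95% interval for each gene, from all 11 wounds (black squares), the L-lettered libraries (grey circles) and the R-lettered libraries (orange triangles). The intervals for TGFB1, LTBP3 and LTBP4 lie above 0 in the R-lettered libraries, and that for TGFB3 lies below 0 in the L-lettered libraries.

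Within each library letter the differences were uneven. All fits within or between letters used the deposited FPKM scaling. TPM scaling, quantile normalization and voom were run only over all 11 wounds. Among the R-lettered libraries, 4 diabetic against 2 non-diabetic, 3 of 10 members were called higher and none lower, beside 5.20% of all genes called higher and 10.1% called in either direction (limma). LTBP3 was 21.7 to 34.8 FPKM against 10.7 and 11.5, a log2 difference of 1.25 ± 0.18 (SE, adjusted p = 0.0201). LTBP4 was 17.9 to 24.4 FPKM against 11.01 and 10.9 there, a log2 difference of 0.88 (adjusted p = 0.0227). TGFB1 was 31.2 to 38.4 against 24.7 and 20.8, a log2 difference of 0.60 (adjusted p = 0.0342). None of these 3 had overlapping groups there, with only 2 non-diabetic wounds, and the share of all genes without overlap in these libraries is not given here. Most of the marker sums separated in the same libraries. The fibroblast sum was 46000 to 52640 FPKM in D4 to D7 against 34720 and 34220 in N3 and N4. The macrophage sum was 710 to 1195 against 337 and 524, and the adipocyte sum 381 to 826 against 336 and 347. The platelet sum was 4.47 to 5.54 against 3.45 and 4.30. Lower in D4 to D7 were the neutrophil sum, at 41.4 to 7488 against 8657 and 9673, and the T cell sum, at 10.03 to 15.48 against 16.57 and 16.3. The skeletal muscle sum separated only at 0.20 FPKM or below. The fibroblast sum is mostly collagen transcripts. PDGFRA, on the same list, lay the other way, at 20.35 to 31.38 FPKM in D4 to D7 against 40.47 and 58.25 in N3 and N4. The part of any cell type in these calls was not tested. Leaving out 1 more R-lettered library left 3 called without D4, 2 without D5 or D6, 1 without D7 and 0 without N3 or N4, where 1 non-diabetic wound remained and was assumed to vary like the others. All genes called there fell from 1415 to 5 without N3 and to 16 without N4.

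Among the L-lettered libraries, 3 diabetic against 2 non-diabetic, no member was called, beside 0.0645% of all genes (limma), and 1 had an unadjusted p under 0.05. That was TGFB3, at 10.9 to 11.5 FPKM against 30.7 and 19.6, a log2 difference of -1.11 ± 0.21 (SE, adjusted p = 0.131) beside -0.33 in the R-lettered libraries (adjusted p = 0.295). LTBP3 pointed the other way there, at -0.77 with a 95% interval of -1.91 to 0.37. The difference between the letters was itself tested with an interaction term over all genes, which called 901 genes and 0 members (limma). At an unadjusted p under 0.05 there were 4 members, and the share of all genes at that cut is not given here. Nearest to a call was LTBP3, with 2.02 ± 0.52 (SE, adjusted p = 0.0509). LTBP4 followed with an adjusted p of 0.0775, TGFB1 with 0.0835 and TGFB3 with 0.118, so no member's effect was shown to differ between letters. Within the diabetic minipig, TGFB1 was 31.2 to 38.4 FPKM in the 4 R-lettered wounds and 25.3 to 27.8 in the 3 L-lettered wounds (exact permutation p = 0.0286, the smallest this split allows). It is the smallest of 10 unadjusted p values, 1 per member. No other scaling of the libraries was tried for this comparison, so its dependence on the deposited scaling was not tested. TGFB3 did not overlap between the letters either, at 12.1 to 18.8 against 10.9 to 11.5 FPKM (exact permutation p = 0.0571), LTBP3 and LTBP4 overlapped with the same p, and the other 6 members gave 0.4 or more.

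**Figure D4:**
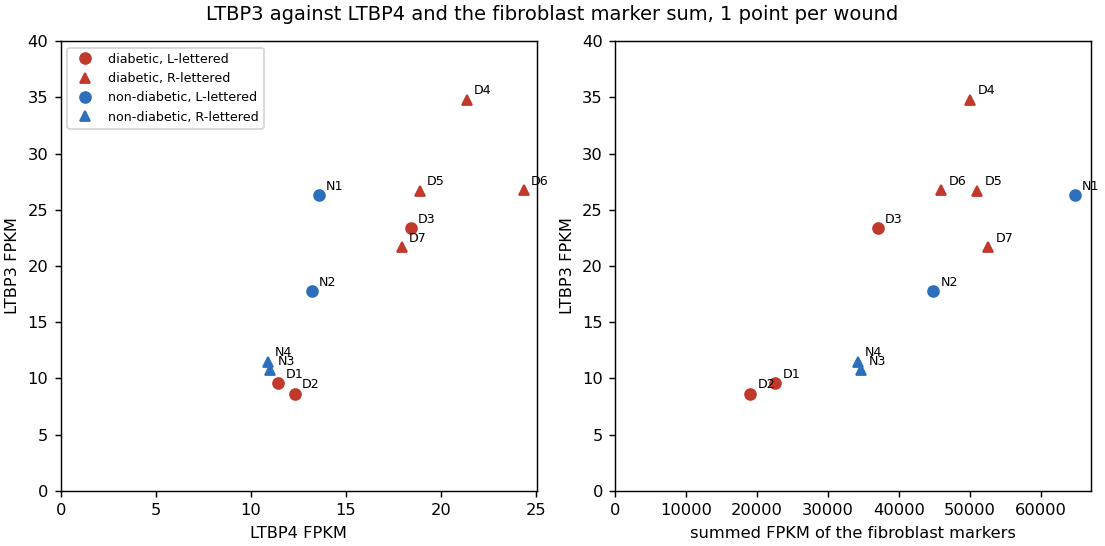
LTBP3 FPKM (vertical) against LTBP4 FPKM (left) and against the summed FPKM of 7 fibroblast markers (right), with 1 labelled point per wound (red diabetic, blue non-diabetic, circles L, triangles R). D1 and D2 are lowest in LTBP3 and in the marker sum, and N1 and N2 lie left of the diabetic wounds of like LTBP3 level on the left.

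LTBP3 and LTBP4 varied together from wound to wound. After the group means were taken out, Pearson's r of their log2 values was 0.919 and Spearman's rho 0.945 over 11 wounds, the highest of all pairs of members. TGFB3 went with both (r = 0.687 and 0.687), and TGFB1 less closely (r = 0.470 with LTBP3 and 0.502 with LTBP4). These are descriptions over wounds that share 2 animals, library letters and tissue make-up. The 7 fibroblast markers, dominated by collagen genes, summed to 22580 and 19040 FPKM in D1 and D2, to 37040 to 52640 in the other diabetic wounds and to 34220 to 64820 in non-diabetic wounds. LTBP3 was lowest in D1 and D2 as well, at 9.57 and 8.62 FPKM, and highest among non-diabetic wounds in N1, which had the largest sum. PDGFRA, on the same marker list, was instead highest among diabetic wounds in D1 and D2, at 45.4 and 35.09 FPKM. The part of fibroblast content in the LTBP values was not tested.

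Of all genes tested, those closest to TGFB1 in pattern over the 11 wounds, after group means were taken out, were LOC100516485 (r = 0.912), ZDHHC18 (r = 0.908) and TSEN34 (r = 0.899). For TGFB2 they were ZCCHC9 (r = 0.955), TSPAN14 (r = 0.946) and TIMP1 (r = 0.940), the last a secreted inhibitor of matrix metalloproteinases. For TGFB3 they were FAM180B (r = 0.928), LOC102162226 (r = 0.912) and LOC106506442 (r = 0.904), each with a mean of 1.00 FPKM or less. They head a ranking over all other genes tested, and their r values are descriptions.

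Per length, the mean FPKM over 11 wounds ran from TGFBR2 (55.7) through TGFB1 (28.5), LTBP1 (21.9), LTBP3 (19.8), TGFB3 (16.2), LTBP4 (15.8), TGFBR1 (10.1), TGFBR3 (9.95) and TGFB2 (5.19) to LTBP2 (1.13). TGFBR2 lay above every other member in every wound, and LTBP2 below. Between them neighbours overlapped: TGFB3 and LTBP4 changed places between the groups, with 13.1 and 17.8 in diabetic and 21.7 and 12.2 FPKM in non-diabetic wounds. TGFBR1 and TGFBR3 overlapped in both groups, with means of 9.41 and 9.91 FPKM in diabetic wounds and 11.23 and 10.01 FPKM in non-diabetic wounds.

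The wider pathway was read from 5 lists of 100 genes in all, of which 97 were tested. In limma, 2 of them passed as higher and 1 as lower in the diabetic minipig, against 3.00% of all genes, and the median log2 fold change was 0.00, with 49 positive and 48 negative. The groups did not overlap for 9 of the 97, against 5.65% of all genes. At an unadjusted p under 0.05 there were 23 of 97, against 18.4% of all genes, and voom called 3, against 2.31%. The same backgrounds hold for the counts by list that follow. In the R-lettered libraries alone 12 were called higher and 8 lower, against 10.1% of all genes in either direction.

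Among 9 co-receptors and cell surface anchors, 5 had an unadjusted p under 0.05 in limma, voom called 0, and limma called 1 higher. This was NRROS, which tethers latent TGFB1 on macrophages and microglia, with 5.46 to 8.15 FPKM in diabetic and 3.56 to 4.71 FPKM in non-diabetic wounds. Every diabetic wound lay above every non-diabetic one, and the log2 difference was 0.56 ± 0.12 (SE, adjusted p = 0.0248, limma). The macrophage marker sums given with TGFB1 moved in the same direction, and their part in NRROS was not tested. NRROS lost its call under 11 of 26 alternatives, voom (adjusted p = 0.0533) and the replicate block among them. ENG (endoglin), the endothelial co-receptor and the most abundant of the list, had means of 41.6 and 39.6 FPKM.

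Of 22 Smads and their regulators limma called none, with 3 at an unadjusted p under 0.05, and voom called 0. SMAD3, the receptor-activated Smad that binds DNA directly, had the largest difference, at 6.81 to 12.1 FPKM in diabetic and 13.1 to 17.3 FPKM in non-diabetic wounds. The groups did not overlap, and the log2 difference was -0.54 ± 0.16 (SE, adjusted p = 0.0865, limma). FKBP1A, which keeps the type I receptor quiet without ligand, was the most abundant, with means of 146.4 and 130.8 FPKM.

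Of 23 genes for activation and matrix docking limma called none, with 6 at an unadjusted p under 0.05, and voom called 1. That was FN1 (fibronectin), at -0.59 in limma (adjusted p = 0.0567), named here after its values were seen. FBN1 (fibrillin 1), which the study also names as downregulated, was -0.55 (adjusted p = 0.0595, limma). ITGB6, the keratinocyte integrin subunit that frees TGFB1 and TGFB3, had the largest difference at -0.70 (adjusted p = 0.531, limma), with ranges of 0.0335 to 2.30 FPKM and 0.198 to 4.42 FPKM. It was -1.25 without N1, -0.48 without D4 and -0.32 without N3. Its lowest values were in D4 and N1, the wounds poor in keratinocyte markers. MMP2, a gelatinase and the most abundant, had means of 2436 and 2564 FPKM.

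Of 10 tested ligand-binding proteoglycans and other binders limma called none, with 3 at an unadjusted p under 0.05, and voom called 1. That was VASN (vasorin), at 0.86 in limma (adjusted p = 0.0541), also named after its values were seen. FST (follistatin), which traps activins rather than TGF-beta, had 1.76 to 22.9 FPKM in diabetic and 0.741 to 1.58 FPKM in non-diabetic wounds. The groups did not overlap, yet the spread among diabetic wounds was wide, and the log2 difference of 1.65 ± 0.56 (SE) had an adjusted p of 0.137 (limma). DCN (decorin), which binds TGF-beta and collagen, was the most abundant, with means of 1860 and 1886 FPKM.

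Of 36 tested genes known to be induced by TGF-beta, 6 had an unadjusted p under 0.05 in limma, and voom called 1. In limma 1 was called higher and 1 lower. TIMP3, a matrix-bound inhibitor of metalloproteinases, was 26.95 to 44.8 FPKM in diabetic and 14.2 to 20.4 FPKM in non-diabetic wounds, without overlap, and rose by 1.09 ± 0.15 (SE) on the log2 scale (adjusted p = 0.00213, limma). It kept its call in the R-lettered libraries alone, at 1.00 (adjusted p = 0.0369), and in all but 2 of 26 alternatives, the L-lettered libraries alone and the replicate block. NOX4, an oxidase that makes hydrogen peroxide in fibroblasts, was 0.661 to 1.16 FPKM against 1.38 to 1.94 FPKM, without overlap, and fell by 0.57 ± 0.12 (SE) on the log2 scale (adjusted p = 0.0240). Without N1, N3 or N4, in the L-lettered libraries and with voom (adjusted p = 0.0738), among others, NOX4 was not called. LRRC15, a marker of TGF-beta-exposed fibroblasts, had the largest difference at -1.27 ± 0.45 (SE, adjusted p = 0.152). It was -2.62 in the L-lettered (adjusted p = 0.101) and -0.12 in the R-lettered libraries (adjusted p = 0.766). COL3A1, the fibrillar collagen and most abundant target, had means of 12614 and 14812 FPKM (adjusted p = 0.674).

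**Figure D5:**
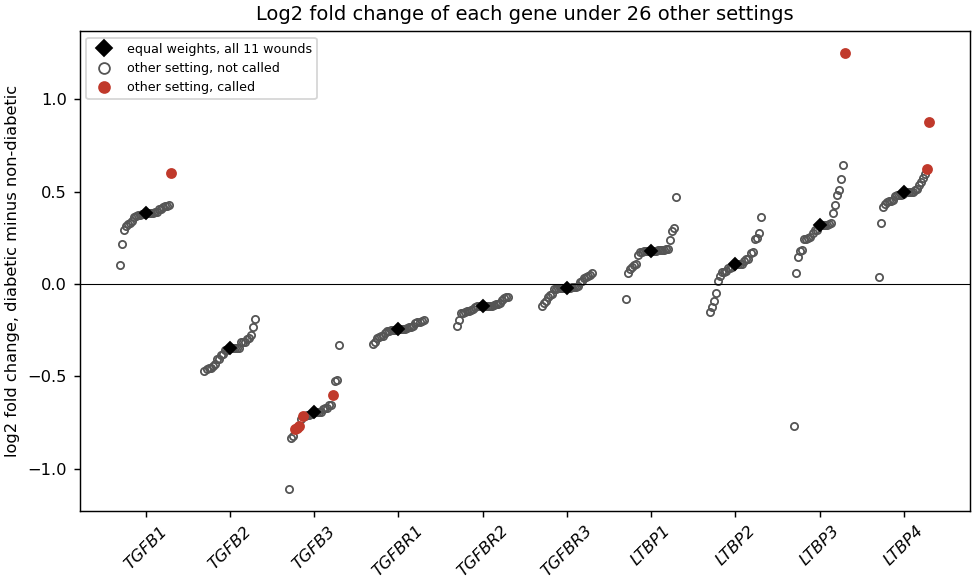
Log2 fold change, diabetic minus non-diabetic, of each gene with equal weights over all 11 wounds (black diamonds) and under 26 other settings of processing or wounds sorted by value (circles, filled red where called). TGFB3 stays below 0 and TGFB1 and LTBP4 above 0 throughout, and LTBP3 spans -0.77 to 1.25.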

How the data were processed

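RNA from 7 diabetic and 4 non-diabetic wounds was analysed, 1 library per wound. Per the labels and the study's methods, the authors used fastp for trimming, HISAT2 2.2.1 for mapping to Sscrofa11.1 and featureCounts 2.0.6 for counting, and deposited FPKM values, whose formula is not given in the sources used here. The value of 1 read was fitted for each library. Multiplied by gene length and divided by that value, 100% of values were whole reads within 0.05 reads, which gave the depth. The filter asked for 4 or more libraries at 0.5 FPKM or higher. Groups were compared on log2(FPKM + 0.5) with limma 3.58.1 (trend) in R 4.3.3. Exact tests used SciPy 1.17.1 and numpy 2.4.6. A pseudocount understates fold changes of low genes. The test was tried on simulated data. Members, lists and tests were chosen with earlier results of these data known. Pathway genes were named if called, most abundant or most changed in their list. Same-numbered wounds come from different animals and were not treated as pairs. Alternatives changed pseudocount, filter, scaling, weights, spread estimate and wounds included. The interaction term and the R-lettered leave-outs were added after seeing the data.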

Additional observations from a re-analysis of the deposited data

Results flagged for a closer look

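In each of the 20 combinations of a member and a group, the most distant wound was compared with Dixon's 95% critical value, which chance passes in about 1 of 20 groups. There were 2 such wounds. D6 was the highest diabetic wound in TGFB3, at 18.8 FPKM, with the next at 14.01. D1 was the highest diabetic wound in LTBP1, at 32.2 FPKM, with the next at 22.9. Without D6 the log2 difference of TGFB3 was -0.78 (adjusted p = 0.0295, limma), and without D1 that of LTBP1 stayed positive.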

How the results depend on the processing

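Under 26 other settings of processing or wounds TGFB1 and LTBP4 stayed positive and TGFB2, TGFB3, TGFBR1 and TGFBR2 negative. The number of members called, 0 of 10, became 1 with TPM scaling, quantile normalization or voom, 2 with library weights and 3 in the R-lettered libraries alone, 0 to 1 on leaving out 1 of the 11 wounds, and 0 to 3 on leaving out 1 R-lettered wound within R. Pathway genes called, 3, became 7 with TPM scaling, 5 with quantile normalization, 10 with weights, 0 in L, 20 in R, 1 without D4 and N1, 1 to 5 on leaving out 1 of the 11 wounds, and 0 to 16 on leaving out 1 within R. Over all genes, 419 became 822 with weights, 9 in L, 1415 in R, 187 without D4 and N1, 181 to 483 on leaving out 1 of the 11 wounds, and 5 to 1180 on leaving out 1 within R. The replicate block called 16 genes, 0 of them pathway genes or members. Same-numbered wounds deviated together with correlations of -0.267, 0.215, 0.068 and -0.483, so the numbers do not pair them. TGFB3 under the replicate block was -0.83 (adjusted p = 0.324).

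Members near 0 changed sign. TGFBR3 was 0.042 with weights, 0.030 with the replicate block, 0.059 in L, -0.12 to 0.048 on leaving out 1 of the 11 wounds and -0.18 to -0.030 on leaving out 1 within R. LTBP1 was -0.084 in R, 0.059 to 0.30 on leaving out 1 of the 11 and -0.30 to 0.13 within R. LTBP2 was -0.093 with the replicate block, -0.13 in R, -0.15 to 0.28 on leaving out 1 of the 11 and -0.46 to 0.19 within R, and LTBP3 was -0.77 in L. Of pathway genes not called, ENG was -0.013 with TPM scaling, -0.058 with quantile normalization, -0.0092 with the replicate block, -0.17 in L and -0.013 to 0.12 on leaving out 1 of the 11 (as for the ranges that follow), MMP2 0.19 with weights, 0.82 in R and -0.35 to 0.098, ITGB6 0.19 in L, DCN 0.14 with weights, 0.48 in R, 0.037 without D4 and N1 and -0.13 to 0.13, and COL3A1 0.38 in R. The cause of these shifts was not tested. One animal per group, 4 non-diabetic wounds and values for whole genes limit what can be read from any of them.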
